A study of Mus musculus with 24 samples.

Results

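Smooth muscle genes and actin cytoskeleton genes that depend on serum response factor (SRF) were followed as 36 named genes, out of 21887 protein-coding genes on placed mouse chromosomes. They were taken by symbol at their mm10 positions, and all 36 were found. By role they were 10 smooth muscle genes, 7 genes of cytoplasmic actin and myosin, 6 other actin-binding genes, 11 genes of adhesions and LIM proteins, and the regulators Srf and Myocd.

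SRF binds the CArG box, a short A- and T-rich DNA element, and acts with partner proteins. One kind of partner, the myocardin-related factors, is held in the cytoplasm by monomeric actin and is freed when actin polymerises, which ties these genes to cell tension. Myocardin, the product of Myocd, is a nuclear partner that drives the smooth muscle contractile genes through SRF. MEF2C and SRF both belong to the MADS-box family of transcription factors, and fibroblasts make much of the cytoplasmic actin apparatus while smooth muscle genes such as Acta2 mark their myofibroblast form.

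CUT&RUN, in which an antibody brings a nuclease to its target on chromatin, was carried out on a single line of mouse embryonic fibroblasts. The line carries Mef2c, Gata4 and Tbx5 under doxycycline, as well as an eGFP reporter driven by Myh6, a cardiomyocyte myosin gene. MEF2C was mapped at day 1 of induction after transfection of siJunb (n = 3), siH1f0 (n = 3) or siControl (n = 2), and these 8 libraries all had doxycycline-induced factors, so the MEF2C seen here includes the transgene's product. H1.0, the linker histone encoded by H1f0, and H3K9me3, a mark of heterochromatin, were mapped under siControl at day 1 (n = 2 each) and in the ground state, without reprogramming (n = 2 each). Day 1 cells were plated at 300000 per well, given 1 µg/mL doxycycline a day after transfection and frozen at harvest, and about 250000 cells were taken for a condition. Ground-state cells had no siRNA per their treatment labels, although their library names carry siControl. The labels do not say what was repeated between biological replicates, so the spread may be partly technical, and neither JUNB nor H1.0 levels after knockdown were measured here. Each library pools all cells of a condition, so fewer bound cells and weaker binding per cell cannot be told apart.

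List length differed widely between libraries. MEF2C peaks numbered between 11731 and 49011 a list and covered between 13.4 and 89.8 Mb. For H1.0 the range was 32934 to 722322 peaks and 28.6 to 1109 Mb, and for H3K9me3 24219 to 69439 peaks and 65.9 to 363 Mb. The names of the deposited lists fall into 2 series, and in MEF2C and H1.0 the lists of the first series (siJunb replicate 1, siH1f0 replicate 3, siControl replicate 1, H1.0 day 1 replicate 2 and ground-state replicate 1) were the shortest of their target. Replicate MEF2C lists shared 9.72% to 41.8% of their joint covered length. The H1.0 pairs shared 2.06% at day 1 and 4.67% in the ground state, and the H3K9me3 pairs 25.7% at day 1 and 19.8% in the ground state. Beside the labelled cell type, a MEF2C peak lay within 5 kb of an end of 4 of 5 fibroblast markers (Col1a2, Pdgfra, Thy1 and Vim), 0 of 5 cardiomyocyte markers and 0 of 5 smooth muscle markers (all members here: Acta2, Cnn1, Lmod1, Myh11 and Smtn) in both siControl lists, which held 20.4% of all protein-coding genes. Peaks do not measure RNA, so these counts do not check the cell label, and expression was not measured here.

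MEF2C peaks lay near most of the cytoplasmic actin, myosin and actin-binding genes, and near fewer of the smooth muscle contractile genes. A list is said to hold a gene if any of its peaks reached, by 1 bp or more, into the 5 kb on either side of one of the gene's ends. Both siControl lists held 19 of the 36 genes (52.8%), where they held 20.4% of all protein-coding genes. All 8 lists, knockdowns included, held 13 of the 36 (36.1%), against 10.1% of all protein-coding genes, namely Actb, Actn1, Cnn2, Fhl2, Myh9, Myl12a, Myl12b, Myl6, Srf, Tln1, Tpm3, Tpm4 and Vcl. None of the 10 smooth muscle genes was among them. No list held Fhl1, a LIM protein gene of muscle, or Myl9, the smooth muscle myosin regulatory light chain, and 37.5% of all protein-coding genes were likewise held by none.

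The same windows around 31 other genes of the SRF pathway, a list that includes upstream regulators and immediate-early targets, were held more often still. Both siControl lists held 20 of the 31 (64.5%), and all 8 lists held 16 (51.6%), among them Rhoa, the GTPase that starts actin polymerisation, its kinase Rock2, the cofilin gene Cfl1, the ternary complex factor Elk4, and the SRF targets Egr1, Fos, Ccn1, Ccn2 and Ankrd1. Des, the muscle intermediate filament, and Tmsb4x, an actin monomer-binding protein, were held by none of the 8. Of the 36 genes, 24 have another protein-coding gene in the same window, so a peak counted for one may lie nearer to another.

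**Figure D1:**
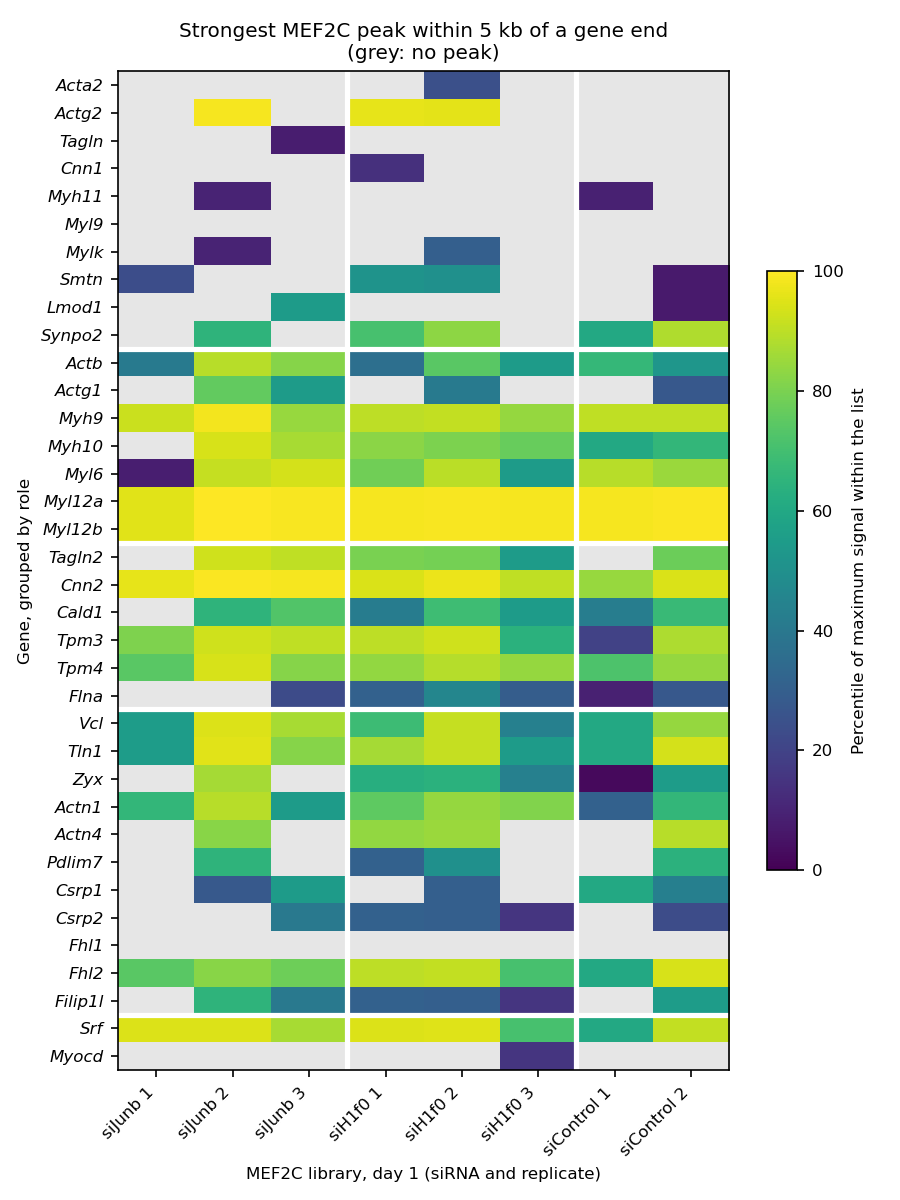
Strongest MEF2C peak within 5 kb of a gene end, for 36 genes (rows, by role, separated by white lines) in 8 libraries (columns). Colour gives the percentile of the peak's maximum signal among the peaks of its own list, from 0 to 100, and grey marks no peak. The 10 smooth muscle genes at the top are mostly grey, while Myl12a and Myl12b are at 95.6 or higher in all 8 lists.

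In single libraries, siJunb lists held 14, 26 and 23 of the 36 genes, siH1f0 lists 26, 29 and 21, and siControl lists 20 and 27. As shares this was 58.3% ± 17.3 (SD, n = 3) under siJunb, 70.4% ± 11.3 (SD, n = 3) under siH1f0 and 65.3% ± 13.7 (SD, n = 2) under siControl, and the 3 groups overlapped. Of all protein-coding genes, the same lists held 19.5%, 45.8% and 34.6% under siJunb, 39.3%, 46.1% and 26.7% under siH1f0, and 21.7% and 42.5% under siControl. The low and high libraries were thus low and high for all genes alike. Within the first series of names, the siJunb list held 14 of the 36, the siH1f0 list 21 and the siControl list 20. In the second series the siJunb lists held 26 and 23, the siH1f0 lists 26 and 29, and the siControl list 27.

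**Figure D2:**
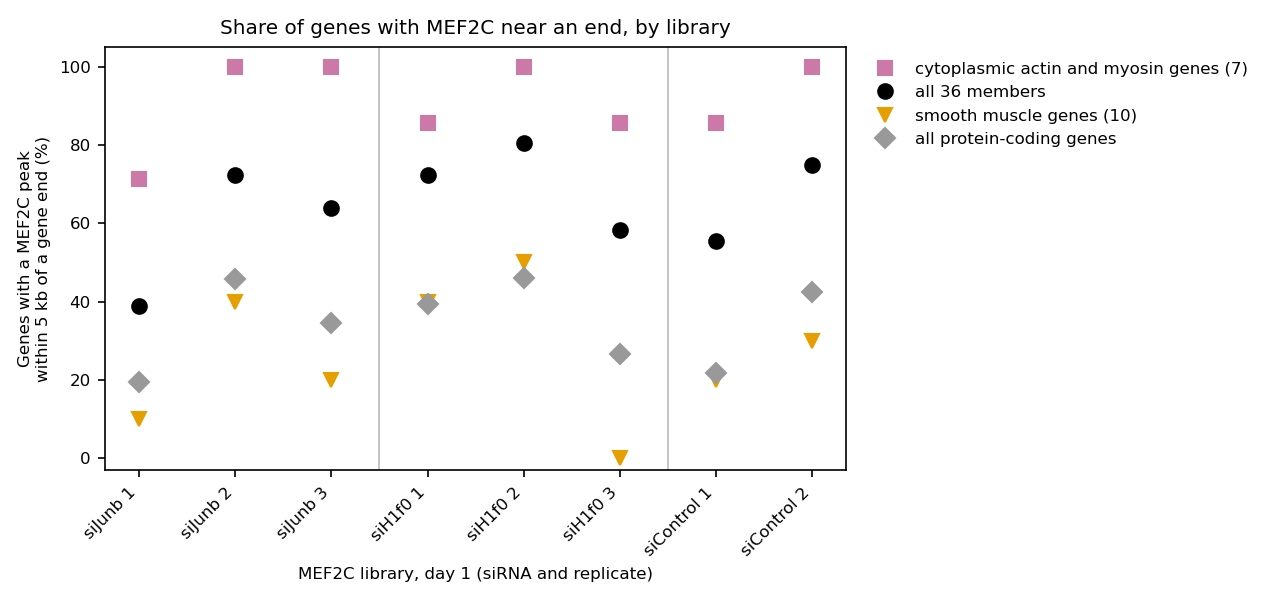
Share of genes (vertical axis, %) with a MEF2C peak within 5 kb of an end in each of the 8 libraries (horizontal axis). Circles are all 36 genes, squares the 7 cytoplasmic actin and myosin genes, triangles the 10 smooth muscle genes and diamonds all 21887 protein-coding genes. In each library the squares lie above the other 3 symbols, from 71.4% to 100%, and the triangles lie between 0% and 50%.

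No member was called as lost or gained under either knockdown. Gained means held by each list of a knockdown and by neither siControl list, and lost means the reverse. Both knockdowns are set against the same 2 siControl lists. Under siJunb, 0 of 36 were lost, where 1.06% of all protein-coding genes were, and 0 were gained, where 0.484% were. Under siH1f0, 0 were lost, against 0.155% of all genes, and 0 were gained, against 0.612%. Between the knockdowns, 0 were held under siJunb alone, against 0.265% of all genes, and 0 under siH1f0 alone, against 0.914%. These counts rest on single lists. Without siJunb replicate 2, 2 members were lost under siJunb (5.56%, against 2.89% of all genes), and without siControl replicate 2, 3 were gained under siH1f0 (8.33%, against 7.12%). In pairs by replicate number, which use replicates 1 and 2, Flna was lost under siJunb (2.78%, against 1.55%) and Actg2 gained under siH1f0 (2.78%, against 2.63%). At these background shares a list of 36 genes is too short for a count of 0 to set it apart from other genes. The smallest exact two-sided permutation p that the design allows is 0.2 for 3 against 2 libraries and 0.1 for 3 against 3, so no gene was tested singly.

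Several members were 1 list short of a call, a rule added after the data were seen. For loss under siJunb these were Flna, Synpo2 and Zyx (8.33% of members, 7.72% of all genes), and for gain under siJunb there were 0 (7.39% of all genes). For loss under siH1f0 they were Csrp1, Lmod1 and Myh11 (8.33%, against 3.55% of all genes). For gain under siH1f0 they were Actg2, Csrp2, Filip1l and Tagln2 (11.1%, against 9.35%). Zyx, which encodes the focal adhesion protein zyxin, had percentiles of 86.6 in siJunb replicate 2, 62.5, 63.8 and 43.4 under siH1f0, and 2.68 and 55.2 under siControl. Flna, the actin cross-linker filamin A, had 22.8 in siJunb replicate 3, 31.2, 45.8 and 29.5 under siH1f0, and 9.33 and 27.4 under siControl. Csrp2, a LIM protein of smooth muscle, had 40.3 in siJunb replicate 3, 31.2, 30.3 and 15.4 under siH1f0, and 23.1 in siControl replicate 2. The siJunb list of the first series, the shortest of the MEF2C lists, held none of the 3 near an end. It had a peak in the Flna body, at percentile 8.4. The part of list length in these patterns was not tested.

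The cytoplasmic actin and myosin genes and the other actin-binding genes were held in most lists. Of the 6 actin-binding genes, siJunb lists held 3, 5 and 6, siH1f0 lists 6, 6 and 6, and siControl lists 5 and 6. Of the 7 actin and myosin genes, siJunb lists held 5, 7 and 7, siH1f0 lists 6, 7 and 6, and siControl lists 6 and 7. Peaks are described below by the percentile of their maximum signal within their own list. Lists differ in length, so percentiles from different lists show no change between them.

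Myl12a and Myl12b, tandem genes for the regulatory light chains of non-muscle myosin, shared one region, chr17:70988492-71005411, which had the highest maximum of the 180 regions at members in 6 of the 8 lists (the Actg2 region was higher in the other two). Its maximum stood at percentiles 95.6, 99.7 and 98.9 under siJunb, 98.6, 99.2 and 98.5 under siH1f0, and 98.8 and 99.3 under siControl. The position of the maximum varied by 130.5 bp over all 8 lists and lay between both genes, with its median at -3206.25 bp relative to the Myl12b start, just beyond the end of Myl12a (gene 67268, chr17:70993793-71002533; Myl12b is gene 67938, chr17:70973963-70990516).

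Myh9, the heavy chain of non-muscle myosin IIA, had peaks at percentiles 92.0, 98.2 and 84.7 under siJunb, 90.1, 90.7 and 84.2 under siH1f0, and 90.6 and 90.3 under siControl. Its start and that of Myl12a were the only member starts under a peak in all 8 lists, 2 of 30 members with a start in the promoter table against 2.69% of 17492 genes. In both siControl lists 7 of 30 starts lay under a peak, against 7.94% of genes, and in no list 8 of 30, against 58.5%. Myh10, the heavy chain of non-muscle myosin IIB, was held by 7 of 8 lists and missed only in siJunb replicate 1.

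Actb, which encodes beta-actin, had peaks at percentiles 40.8, 89.4 and 81.7 under siJunb, 36.7, 74.6 and 55 under siH1f0, and 66.7 and 52.5 under siControl. Actg1, the gene of gamma-actin, was held at percentiles 75.9 and 54.9 in siJunb replicates 2 and 3, at 41.0 in siH1f0 replicate 2 and at 27.4 in siControl replicate 2, and was absent from the other 4 lists. All 3 lists of the first series were among those that lacked it. Myl6, the essential light chain shared by non-muscle and smooth muscle myosin, stood at 8.4, 91.3 and 93.5 under siJunb, 78.3, 89.8 and 55 under siH1f0, and 89.3 and 84.8 under siControl. For Actb and Myl6 the groups overlapped in rank. The Myl6 ranks came from different peaks. In siJunb replicate 1, the lowest, it was chr10:128492454-128494250 over the start, and in siH1f0 replicate 3 chr10:128485396-128486694. The other lists were ranked by chr10:128497973-128501077, 4087 bp from Myl6 and over the neighbouring gene Myl6b, so it may belong to either. siJunb replicate 1 also held that region, with a maximum of 10, but its peak there lay outside the window.

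Among the other actin-binding genes, Cnn2, the calponin of non-muscle cells, had high-ranking peaks throughout. They stood at 96.2, 99.4 and 98.7 under siJunb, 94.4, 96.9 and 90.5 under siH1f0, and 84.5 and 94.3 under siControl. The siJunb and siH1f0 percentiles overlapped, as did siH1f0 and siControl, while all 3 siJunb ones lay above both siControl ones. Their region, chr10:79983686-79990725, had its median maximum at -3539.25 bp relative to the Cnn2 start, on the side of the neighbouring gene Tmem259, so it may belong to either.

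Tropomyosins coat the actin filament and set which proteins can reach it. Tpm3 stood at percentiles 80.6, 92.8 and 90.3 under siJunb, 90.1, 92.8 and 64.0 under siH1f0, and 19.7 and 87.6 under siControl. Tpm4 stood at 74.4, 93.8 and 81.7 under siJunb, 83.7, 88.8 and 84.2 under siH1f0, and 72 and 84.3 under siControl. Ranks of both genes overlapped between the groups. Cald1, the gene of caldesmon, was held near an end by 7 of 8 lists but carried peaks in its body in all 8, with 9, 14 and 10 under siJunb, 12, 14 and 11 under siH1f0, and 9 and 13 under siControl.

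Of the adhesion genes, Vcl encodes vinculin and Tln1 talin, which join integrins to actin. Vcl stood at percentiles 55.2, 94.7 and 86.9 under siJunb, 68.4, 91.1 and 43.4 under siH1f0, and 60.2 and 84.3 under siControl. Tln1 stood at 55.2, 95.5 and 81.7 under siJunb, 86.5, 91.1 and 55 under siH1f0, and 60.2 and 93.6 under siControl. In both genes the lists of the first series gave the lowest rank of each group.

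Actn1, the gene of the actin cross-linker alpha-actinin 1, stood at 66.1, 89.4 and 54.9 under siJunb, 75, 84.0 and 80.9 under siH1f0, and 31.2 and 66.1 under siControl. Fhl2, a LIM protein gene known as an SRF target, stood at 74.4, 82.4 and 77.9 under siJunb, 90.1, 90.7 and 71.0 under siH1f0, and 60.2 and 94.1 under siControl. The groups overlapped for Fhl2. For Actn1 the siJunb values overlapped both others, while all 3 siH1f0 percentiles lay above both siControl ones. Of the other adhesion and LIM genes, Actn4 and Pdlim7 were held by 4 lists, Csrp1 and Csrp2 by 5, and Zyx and Filip1l by 6.

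The smooth muscle genes were held no more often than genes at large in most lists, with 1, 4 and 2 of 10 under siJunb, 4, 5 and 0 under siH1f0, and 2 and 3 under siControl. The groups overlapped. As shares these were 23.3% ± 15.3 (SD, n = 3), 30.0% ± 26.5 (SD, n = 3) and 25% ± 7.07 (SD, n = 2), where the lists held 33.3% ± 13.2, 37.4% ± 9.84 and 32.1% ± 14.7 of all protein-coding genes under siJunb, siH1f0 and siControl. With the gene body added the smooth muscle shares were 33.3% ± 15.3, 46.7% ± 15.3 and 35.0% ± 7.07, and those of all genes 40.7% ± 13.6, 43.9% ± 8.79 and 39.6% ± 13.5. These SDs are spreads between libraries and do not measure the gap between the 2 shares within a list. Near gene ends, the smooth muscle share was above that of all genes only in siH1f0 replicates 1 and 2 (40% and 50%, against 39.3% and 46.1%). The widest gap below was in siH1f0 replicate 3, with 0% against 26.7%.

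Acta2 (gene 11475, chr19:34240336-34255585), the smooth muscle actin gene that marks myofibroblasts, had a peak in 1 of 8 lists, siH1f0 replicate 2, at percentile 24.4 and over its start. Tagln, the gene of transgelin, had a peak only in siJunb replicate 3, at percentile 8.2. Cnn1, the smooth muscle calponin, had one only in siH1f0 replicate 1, at percentile 14.0. Neither siControl list had a called peak at these 3 genes, and at this list length a weaker signal would not be listed.

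Myh11, the smooth muscle myosin heavy chain, was held in siJunb replicate 2 and siControl replicate 1, at percentiles 9.79 and 9.33. Smtn, the gene of smoothelin, was held in siJunb replicate 1 at 23.6, in siH1f0 replicates 1 and 2 at 51.4 and 50.2, and in siControl replicate 2 at 7.29. Lmod1, a leiomodin that nucleates actin, was held in siJunb replicate 3 at 54.9 and in siControl replicate 2 at 7.29. Synpo2, the gene of myopodin, was the most often held of the 10, by 1 siJunb, 2 siH1f0 and both siControl lists at percentiles between 60.2 and 87.9.

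For Mylk and Actg2 the window at the gene ends missed regions that all 8 lists held. Mylk, the myosin light chain kinase, was held near an end by 2 lists, siJunb replicate 2 at percentile 9.79 and siH1f0 replicate 2 at 30.3. Within its body, however, chr16:34791048-34795925 was held by all 8, with a maximum of 8, 12 and 12 under siJunb, 35, 45 and 16 under siH1f0, and 14 and 58 under siControl, in units of stacked fragments. As percentiles within each list these were 66.1, 89.4 and 77.9 under siJunb, 87.4, 91.1 and 90.5 under siH1f0, and 79.5 and 89.8 under siControl, and the groups overlapped. The maxima lay within 304 bp of one another, with their median 8211.5 bp after a Mylk start.

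Actg2, the enteric smooth muscle actin gene, was held within 5 kb by siJunb replicate 2 at 98.8 and by siH1f0 replicates 1 and 2 at 96.4 and 96.0. The peak belonged to chr6:83505062-83508319, which all 8 lists held, with a maximum of 28, 28 and 33 under siJunb, 60, 67 and 35 under siH1f0, and 29 and 98 under siControl. The median maximum of all peaks was 7, 7 and 9 under siJunb, 17, 16 and 8 under siH1f0, and 9 and 20 under siControl. Maxima from different lists therefore show no change between them. In the other 5 lists the peak at Actg2 ended short of the window. Dguok shares this region, and no MEF2C peak lay in the Actg2 body in any list. The 5 kb limit therefore decides what is counted for this gene.

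The regulators stood apart from each other. Srf (gene 20807, chr17:46546838-46558267) was held by all 8 lists, at percentiles 94.6, 94.7 and 86.9 under siJunb, 94.8, 95.3 and 71.0 under siH1f0, and 60.2 and 90.8 under siControl. Myocd was held near an end by siH1f0 replicate 3 alone, at percentile 15.4, and in its body by that list and siControl replicate 2.

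Promoters of these genes were searched for SRF, MEF2 and AP-1 sites in the 250 bases before and 50 after each start, as given by RefSeq for GRCm38.p6, on both strands. Of the 36 genes, 30 had 37 promoters in that table, and Actb, Tagln, Actg2, Csrp2, Myocd and Myh11 had no entry. A CArG box was counted only as a full match to CCWWWWWWGG, where W is A or T. Near matches, such as ccctatatgg in the Acta2 promoter, were not counted, so a promoter without a match may still hold an SRF site. A full match was present in 10 of 37 promoters (27.0%), of 9 genes, against 1.63% of 32851 promoters. The genes were listed for their dependence on SRF, so this share describes the list and is not a test of it. A MEF2 box was present in 3 of 37 (8.11%), in Fhl2, Filip1l and Synpo2, against 3.19% of all promoters. The AP-1 site TGANTCA, the kind of site that JUNB binds, was present in 5 of 37 (13.5%), in Actn4, Cald1, Myl12a, Mylk and Zyx, against 7.81%. Only 1 member promoter, of Fhl2, held both a CArG and a MEF2 box, and they did not overlap.

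The promoters below carry a CArG box and, except for Filip1l, belong to members held by all 8 lists. They are shown because MEF2C was found near genes whose promoters hold the SRF element. Sequences run from 5′ to 3′ on the strand of the gene, with CArG and MEF2 boxes in capitals. Filip1l, an actin-associated filamin-A-interacting protein gene, was held near an end by 6 lists. It was added after its values were seen, since its CArG-box promoter was touched by a peak in all 8 lists. The Srf promoter is chr17:46556113-46556412 (minus strand), Vcl chr14:20929148-20929447 (plus), Myl6 chr10:128492960-128493259 (minus), Cnn2 chr10:79988350-79988649 (plus), Fhl2 chr1:43196712-43197011 (minus) and Filip1l chr16:57548992-57549291 (plus), all on GRCm38.p6.
Srf: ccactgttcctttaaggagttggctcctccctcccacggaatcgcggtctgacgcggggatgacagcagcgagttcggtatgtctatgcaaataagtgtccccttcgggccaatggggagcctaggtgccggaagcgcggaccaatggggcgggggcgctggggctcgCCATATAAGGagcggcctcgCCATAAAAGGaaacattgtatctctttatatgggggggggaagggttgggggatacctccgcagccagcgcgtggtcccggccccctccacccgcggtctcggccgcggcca
Vcl: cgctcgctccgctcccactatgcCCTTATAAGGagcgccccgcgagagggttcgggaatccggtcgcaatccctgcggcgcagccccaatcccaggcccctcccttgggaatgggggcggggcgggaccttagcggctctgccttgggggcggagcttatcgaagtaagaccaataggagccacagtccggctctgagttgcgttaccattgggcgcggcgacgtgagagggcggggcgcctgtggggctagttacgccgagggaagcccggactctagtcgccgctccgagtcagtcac
Myl6: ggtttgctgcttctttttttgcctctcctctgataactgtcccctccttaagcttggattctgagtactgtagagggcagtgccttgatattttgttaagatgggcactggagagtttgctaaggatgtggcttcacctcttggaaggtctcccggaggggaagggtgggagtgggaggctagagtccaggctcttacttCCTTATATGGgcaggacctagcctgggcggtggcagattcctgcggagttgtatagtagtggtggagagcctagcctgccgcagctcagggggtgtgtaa
Cnn2: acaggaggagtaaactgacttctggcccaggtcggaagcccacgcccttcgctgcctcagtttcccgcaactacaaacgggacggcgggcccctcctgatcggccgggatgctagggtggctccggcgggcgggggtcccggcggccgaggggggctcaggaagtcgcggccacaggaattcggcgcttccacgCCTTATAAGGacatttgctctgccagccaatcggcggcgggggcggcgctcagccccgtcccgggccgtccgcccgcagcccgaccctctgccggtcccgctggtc
Fhl2: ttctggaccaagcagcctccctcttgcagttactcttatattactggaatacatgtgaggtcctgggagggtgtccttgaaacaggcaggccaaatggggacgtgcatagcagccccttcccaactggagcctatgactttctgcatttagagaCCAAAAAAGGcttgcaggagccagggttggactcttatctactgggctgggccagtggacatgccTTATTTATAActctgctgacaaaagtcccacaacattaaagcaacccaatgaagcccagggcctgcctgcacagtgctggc
Filip1l: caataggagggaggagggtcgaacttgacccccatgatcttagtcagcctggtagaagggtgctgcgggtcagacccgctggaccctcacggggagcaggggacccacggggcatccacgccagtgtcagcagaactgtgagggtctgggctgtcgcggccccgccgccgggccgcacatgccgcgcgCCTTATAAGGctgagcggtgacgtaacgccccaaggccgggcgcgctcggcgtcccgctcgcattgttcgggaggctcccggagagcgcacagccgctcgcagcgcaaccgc

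Srf carries 2 CArG boxes, which begin 82 and 62 bases before the start, and the promoter was touched by a MEF2C peak in 2 of 3 siJunb, 3 of 3 siH1f0 and 1 of 2 siControl lists. The median maximum of the Srf region lay elsewhere, 2999.75 bp after the start, inside the gene. In siJunb replicate 2 the maximum, at 46556279, lay within the printed promoter, and the maxima of all lists spanned 3192 bp. In Vcl the CArG box begins 227 bases before the start, in a promoter touched in 3 of 3 siJunb, 3 of 3 siH1f0 and 1 of 2 siControl lists. There the median maximum lay at -158.5 bp relative to the start, within the printed sequence, and 6 of 8 maxima lay within 500 bp of that median. Those 6 were the siJunb and siH1f0 lists, at 20929246.5, 20929234.5 and 20929244.5 under siJunb and 20929221, 20929221 and 20929076.5 under siH1f0, against 20931420 and 20931179.5 under siControl, inside the gene. This split was picked out after its values were seen and was not tested.

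Myl6 has its CArG box 50 bases before the start, and peaks touched that promoter in 3 of 3 siJunb, 3 of 3 siH1f0 and 1 of 2 siControl lists. The Filip1l box begins 62 bases before the start, with a median maximum at -303 bp relative to the start and 4 of 8 maxima within 500 bp of that median, and the gene Cmss1 spans the same place. The Cnn2 box begins 56 bases before the start, and its promoter was touched in 1 list of each group. Fhl2 has a CArG box 96 and a MEF2 box 31 bases before this start, and its promoter was touched by 1 list, siH1f0 replicate 2. The region that held Fhl2 in all 8 lists was chr1:43126727-43130053, near the far end of the gene, 35715 bp after the nearest start.

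The other CArG-box promoters were those of Actg1, Myl9, Fhl1 and a second Fhl2 start. Of these, MEF2C peaks touched none of the Actg1, Myl9 and Fhl1 promoters in any list, and the Fhl2 one in 1 siJunb list. Another Fhl1 promoter, without a CArG box, was touched in 1 siJunb list. Presence of the element and of MEF2C at a promoter therefore did not go together in each gene.

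Merging the 8 MEF2C lists gave 77240 regions, of which 180 lay in the body or within 5 kb of 35 of the 36 genes. Myl9 had none, and Cald1 had the most, with 19, followed by Myh10 and Filip1l with 13 each. These 3 are long genes, of 176975, 124712 and 219528 bp. Per 10 kb of body and flanks they had 1.02, 0.965 and 0.566 regions, and the highest were Myl12b with 2.64 and Actg1 with 2.34. Of the 180 regions, 30 (16.7%) were held by all 8 lists, against 5.58% of all regions, and 74 (41.1%) occurred in 1 list, against 56.4%. The 30 regions lay at 17 genes, with 6 at Cald1 and 3 each at Actn1, Filip1l and Tpm4.

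Few regions at the members followed the rule for a knockdown. By region, 1 was gained under siJunb (0.556%), where 0.256% of all regions were, and 0 were lost, where 1.98% were. Under siH1f0, 2 were gained (1.11%), where 0.448% were, and 0 were lost, where 0.249% were. Those 2 were also held under siH1f0 and not siJunb, as were 1.41% of all regions, and 0 were held under siJunb and not siH1f0, as were 0.132%.

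The region gained under siJunb lay inside Myh9, at chr15:77810575-77813455, 28720 bp after its start. Its maximum was 6, 8 and 10 under siJunb, while siH1f0 replicate 2 had 11, the other siH1f0 lists had none and both siControl lists had none. The median maximum of all peaks was 7, 7 and 9 in the siJunb lists, and 17, 16 and 8 in the siH1f0 lists. Of the regions gained under siH1f0, the one inside Cald1, chr6:34622025-34626410, reached 18, 13 and 5 under siH1f0. The one at an end of Csrp2, chr10:110917948-110921102, reached 13, 10 and 5. Neither had a peak under siJunb or siControl, and other regions at all 3 genes were held by at least 1 siControl list.

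The place of the MEF2C maximum within shared regions was steady at some genes and not at others. The steadiest was a Vcl region inside the gene, chr14:20935478-20941308, whose 8 maxima lay within 41.5 bp of one another, 9250.5 bp after the start at the median. A region inside Actn4, chr7:28929709-28933185, followed with 105.5 bp, then the Myl12a and Myl12b region with 130.5 bp, a region inside Actn1, chr12:80197928-80200629, with 152.5 bp, and one beyond Tpm4 with 169.5 bp. Positions under each knockdown overlapped those under siControl in these 5 regions, except at Actn1, where both siControl maxima lay at higher coordinates than all 3 siJunb maxima.

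At the other extreme, maxima varied by 9795.5 bp in one of the Filip1l regions and by 5866.5 bp in the Actb region. In 13 of the 30 regions (43.3%) all 8 maxima lay within 500 bp of their median, against 69% of the 4310 regions held by all 8 lists. Regions at the members had a median width of 6152.5 bp against 5217 bp for all such regions, and the median range of their maxima was 1321.5 bp against 338.75 bp. Wider regions leave more room for a maximum to vary, and the part of width in this difference was not tested.

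**Figure D3:**
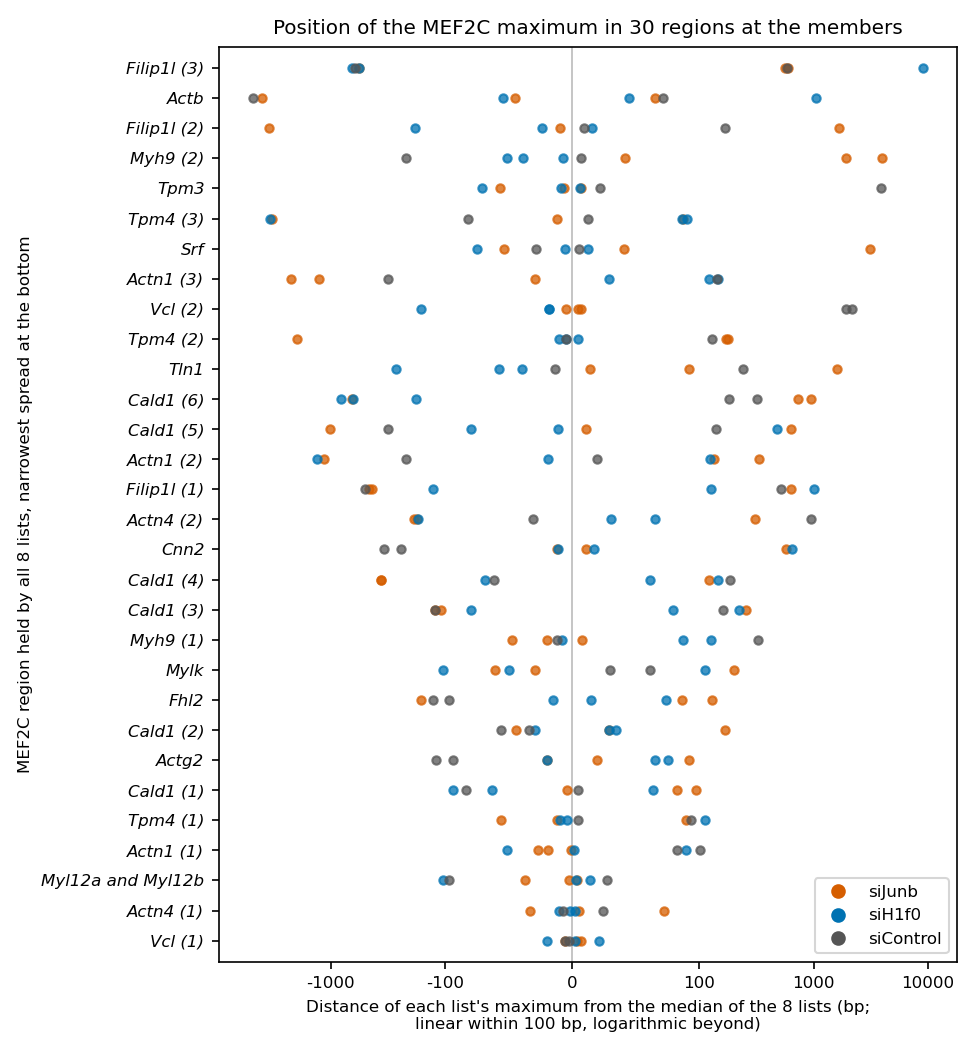
Position of the MEF2C maximum of each list (points, coloured by siRNA) relative to the median of the 8 lists, in bp on an axis that is linear within 100 bp and logarithmic beyond, for the 30 regions held by all 8 lists. Numbers in brackets tell apart regions of one gene, and the narrowest spread is at the bottom. At Vcl (1) all points lie within 41.5 bp of one another, while the points of Filip1l (3) span 9795.5 bp.

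The median member had more of its body under H1.0 than the median gene in each list, but the roles differed. At day 1 the median share of the gene body under H1.0 peaks was 49.1% and 0.355% over the 36 genes, where it was 41.6% and 0% over all protein-coding genes. In the ground state it was 6.24% and 39.4% over the 36 genes, where it was 1.22% and 36.4% over all genes. In ground-state replicate 2 the upper quartile was 47.3% for members and 60.5% for all genes, and the medians of the smooth muscle (33.6%), actin-binding (28.9%) and adhesion (33.2%) genes lay below that of all genes. The lists of the first series were the low ones in both states, at 0.355% for day 1 and 6.24% for the ground state, so the 2 replicates of a state differed more than the states did.

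No member was called as changed under H1.0. A call needed both day 1 lists beyond both ground-state lists and means at least 5 percentage points apart. This gave 0 of 36 lower at day 1, against 0.859% of all genes, and 0 higher, against 0.557%. Without day 1 replicate 1, 28 of 36 were lower (77.8%), where 46.1% of all genes were, and without day 1 replicate 2, 25 were higher (69.4%), where 49.2% were. Without ground-state replicate 1, 10 were lower (27.8%), where 41.6% were. In the pairing by replicate number, 1 was lower, Tagln2, as were 1.11% of all genes. Within the first series, 28 of 36 were lower at day 1, where 49.3% of all genes were, and the median difference was -4.36 percentage points. Within the second series, 26 of 36 were higher at day 1, where 50.6% of all genes were, and the median difference was 10.2 percentage points. The 2 pairs thus moved in opposite directions for most members. The state and the list length cannot be told apart in either pair.

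Ranked by the median of the 4 lists, which differ widely in covered length, the highest H1.0 shares were those of Actg1, Myl6 and Myh11. Actg1 had 62.8% and 0% at day 1, against 35.7% and 71.5% in the ground state, and Myl6 had 80.0% and 0% at day 1, against 0% and 82.0%. Myh11 had 58.5% and 1.90% at day 1, against 12.0% and 67.9% in the ground state. Each had over 50% in both lists of the second series, and Actg1 had 35.7% in the first-series ground-state list as well.

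Lowest were Myl9, Tpm3 and Pdlim7. Myl9 had 11.5% and 0% at day 1, against 0% and 17.7% in the ground state. Tpm3 had 31.5% and 0% at day 1, against 3.21% and 12.2% in the ground state, and Pdlim7 had 27.0% and 0%, against 0% and 16.8%. Myl9, which had no MEF2C region, thus also had little H1.0. The 8 members held by neither siControl MEF2C list had a median H1.0 share of 47.4% and 0.355% at day 1 and 3.07% and 25.8% in the ground state. The 19 members held by both had 45.3% and 0% at day 1 and 5.88% and 39.5% in the ground state.

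Some members kept one direction in the pairs of both naming series, a comparison added after the data were seen. With any size of difference, 6 of 36 were lower at day 1 in both pairs (16.7%), where 19.7% of all genes were, and 2 were higher (5.56%), where 4.52% were. With a mean difference of at least 5 percentage points, 3 were lower (8.33%), where 15.5% were, and 2 higher, where 3.31% were. Acta2 was higher at day 1 by 2.51 and 25.8 percentage points in the first and second series, and Cnn1 by 10.3 and 40.5. Actg1, Myh11 and Myocd were the 3 lower at day 1, and Cald1, Fhl1 and Filip1l fell short of 5 points. Differences were -35.7 and -8.76 points for Actg1, -10.1 and -9.35 for Myh11, and -6.01 and -12.5 for Myocd. With 2 against 2 libraries the smallest exact permutation p is 0.33, and these genes were not tested.

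H3K9me3 covered little of most gene bodies, members and others alike. The median share was 0% in each of the 4 lists, for the 36 genes and for all protein-coding genes alike. At day 1, 8 and 13 of the 36 had any cover (22.2% and 36.1%), against 6 and 14 (16.7% and 38.9%) in the ground state. Of all protein-coding genes 19.5% and 23.8% had cover at day 1, against 12.7% and 27.4% in the ground state, so the members' share was the higher in each list. Members were also longer. Median length was 28.3 kb for members held by both siControl MEF2C lists, against 22.2 kb for all such genes. For genes held by neither it was 19.3 kb against 13.5 kb, and the part of length in the cover was not tested. Peaks touched 0 of 37 member promoters in both day 1 lists and in 1 ground-state list, and 1 of 37 in the other, the Fhl2 promoter not printed above. Of 21263 promoters of protein-coding genes, they touched 2.19% and 5.62% at day 1, against 1.13% and 5.34% in the ground state, and 0 or 1 of 37 is near the background. The calls were 0 of 36 lower at day 1, against 0.128% of all genes, and 0 higher, against 0.439%. In pairs by replicate number, 1 was higher, Cnn2, as were 2.63% of all genes.

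Cnn2 stood out for H3K9me3, with 20.8% and 55.7% of its body covered at day 1, against 0% and 40.3% in the ground state. The groups overlapped. Actn1 followed with 1.13% and 5.83% at day 1, against 4.93% and 10.9% in the ground state, and Lmod1 with 4.29% and 5.59% at day 1, against 4.33% and 9.54%. No cover was found in any list over 22 of the 36 genes. Among the smooth muscle genes, 5 of 10 (Acta2, Tagln, Cnn1, Myl9 and Smtn) had none in any list. The other 5 (Actg2, Myh11, Mylk, Lmod1 and Synpo2) had cover in both lists of the second series, where 23.8% of all genes had cover at day 1 and 27.4% in the ground state. Actg2 had 0% and 13.0% at day 1, against 0% and 7.48% in the ground state.

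**Figure D4:**
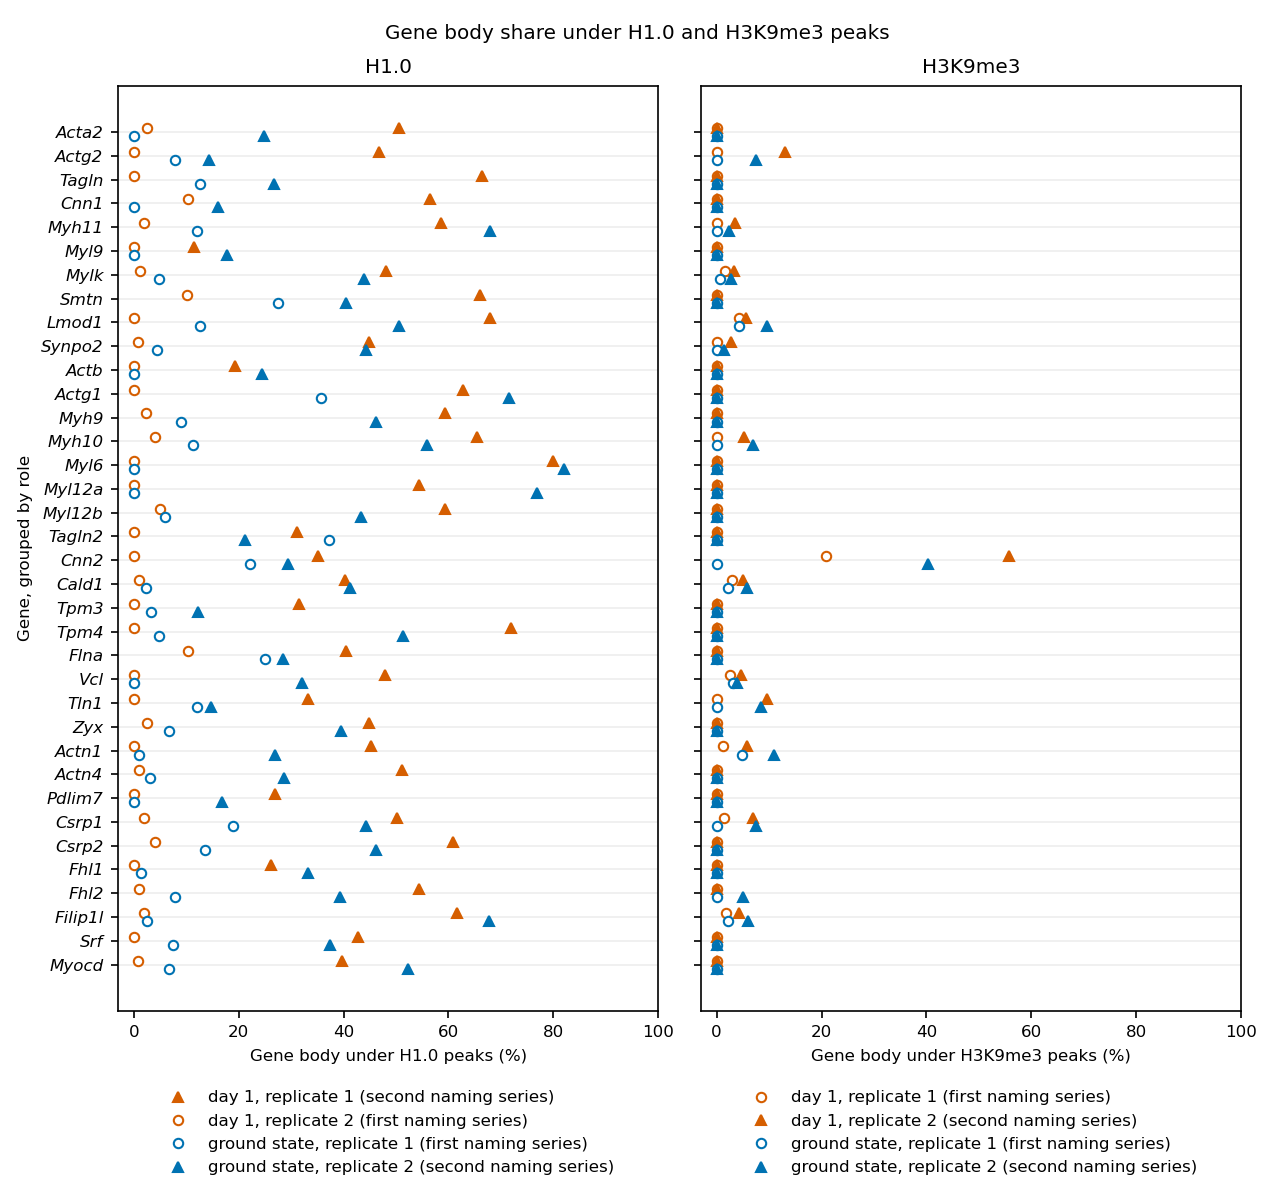
Share of each gene body under H1.0 peaks (left) and H3K9me3 peaks (right), in %, for the 36 genes in rows by role. Orange points are day 1 lists and blue points ground-state lists, with open circles for the first and triangles for the second naming series. H1.0 shares separate by naming series more than by state, and for H3K9me3 Cnn2 reaches 55.7% while most genes lie at 0%.

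The MEF2C regions themselves were mostly touched by H1.0 peaks in the long lists and seldom by H3K9me3 peaks. Overlap here means 1 bp or more and does not give the share of a region covered. The long H1.0 lists, day 1 replicate 1 and ground-state replicate 2, touched 88.4% and 79.9% of all 77240 merged regions. They covered 911 and 1109 Mb, where H3K9me3 lists covered 65.9 to 363 Mb. The part of covered length in the contrast between H1.0 and H3K9me3 was not tested. Of the 48 member regions held by both siControl lists, H1.0 peaks overlapped 97.9% and 8.33% in the day 1 lists, against 41.7% and 91.7% in the ground-state lists. For all 10802 such regions the shares were 95.0% and 14.8% at day 1, against 27.1% and 90.6% in the ground state. H3K9me3 overlapped 0% and 8.33% of the member regions at day 1, against 2.08% and 10.4% in the ground state. All such regions gave 5.58% and 8.42% at day 1, against 3.68% and 10.5% in the ground state. The H1.0 shares of members lay above those of all regions in 3 of 4 lists and below in day 1 replicate 2. Among all merged regions, those at members were wider (median 2417 against 1951 bp), and the part of width was not tested.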

How the data were processed

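CUT&RUN peak lists of 16 libraries were used, 1 list per library, and 8 IgG samples were not analysed here. Bowtie2, SEACR and mm10 are named in the submitters' processing notes, and the version of either tool is not given in the sources used here. Every deposited peak carries 2 values of signal, a total over its length and a maximum, and the maxima are whole numbers that do not look scaled. The peak scores are the authors' own and were used to rank or filter peaks within a list. Sequencing depth per the labels was 30 M reads for each library. How many aligned is not known here, so list length and the spread between libraries stand in for precision.

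Peaks off chromosomes 1 to 19, X and Y were dropped. Gene positions came from RefSeq for GRCm38.p6, the assembly of mm10, without strand or exons, so either gene end was taken and exons were not told apart. Coordinates are 1-based. A gene or region was held by a list when at least 1 bp of a peak overlapped. The percentile of a peak is its mid-rank by maximum signal in its list. Body share is the percentage of gene length under peaks. Promoters and starts came from RefSeq tables of the same assembly. Counts of members stand beside the same counts over 21887 protein-coding genes or 77240 merged regions, with no test over the list. Computation used Python 3.11.15, numpy 2.4.6 and pandas 2.3.3, and overlaps and motif searches were checked on simulated data. Alternatives covered the window, the peaks used, list length, overlap, single libraries, the replicate block and naming series.

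Genes with values per library were those held in all 8 lists, those called by a rule, the smooth muscle genes, Srf, Myocd, Actb and Actg1, and the 3 highest and 3 lowest in body share. The members, lists and rules were chosen with earlier results of these data known.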

Additional observations from a re-analysis of the deposited data

How the results depend on the processing

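The count held by both siControl lists (19) was within 1.5 times of itself under each other setting of window, overlap, peaks used and list length. The count held by all 8 (13) was 8 with the upper part of each list by maximum signal and 8 when at least 50% of a peak had to lie in the window. Members lost under siJunb were 1 with lists of equal length (11731 peaks), members gained under siH1f0 1 in the gene body alone, and members with higher H1.0 at day 1 1 with the upper part of each list and 2 at equal covered length. The cause was not tested.

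Leaving out 1 library gave 20 to 27 held by both siControl lists (then by the one left), 13 to 15 held by all, 0 to 2 lost and 0 to 0 gained under siJunb, 0 to 1 lost and 0 to 3 gained under siH1f0, 0 to 0 held under siJunb and not siH1f0, and 0 to 2 in the opposite case. The highest were 2 lost without siJunb replicate 2, 3 gained without siControl replicate 2 and 2 held under siH1f0 alone without siJunb replicate 3. H1.0 calls were 0 to 28 lower and 0 to 25 higher at day 1, with 28 lower without day 1 replicate 1, 10 lower without ground-state replicate 1 and 25 higher without day 1 replicate 2. H3K9me3 calls were 0 to 1 lower and 0 to 3 higher, with 3 without day 1 replicate 1.

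Replicate numbers were not taken to pair the libraries, as deviations over all genes did not correlate above 0.1 in each same-numbered pair. They correlated at 0.193 and 0.166 between siJunb and siControl, -0.131 and 0.234 between siH1f0 and siControl, and -0.0782, 0.143 and -0.0303 between siJunb and siH1f0. With 2 siControl lists the deviations of one mirror those of the other, as siJunb replicate 1 gave 0.193 and -0.193. The values against siControl therefore cannot show whether replicate numbers pair the libraries. With the replicate block, 1 member was lost under siJunb (Flna), 1 gained under siH1f0 (Actg2), 1 lower in H1.0 (Tagln2) and 1 higher in H3K9me3 (Cnn2), and the other calls stayed at 0.

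Alternatives by naming series were added after the data were seen. The first series has 1 library per group, with 7 lost (19.4%, against 9.22% of all genes) and 1 gained (2.78%, 6.94%) under siJunb, 3 lost (8.33%, 5.71%) and 4 gained (11.1%, 10.7%) under siH1f0, 1 held under siJunb and not siH1f0 (2.78%, 5.25%), and 8 in the opposite case (22.2%, 12.5%). The second series gave 1 member each lost under siJunb (6.51% of all genes), lost (2.86%) and gained (2.92%) under siH1f0, and held under siH1f0 and not siJunb (4.0%). Pairs of one series gave 3 lower (15.5% of all genes) and 2 higher (3.31%) in H1.0 and 1 higher (2.63%) in H3K9me3. In all, 107 of the alternative values stayed within 1.5 times and 41 did not. List length limits what the shortest lists can show.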
